A study of Mus musculus with 9 samples.

Results

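The transcripts of 43 enzymes and carriers of glycolysis, pyruvate metabolism, the tricarboxylic acid (TCA) cycle and the pentose phosphate pathway were measured in mature mouse eggs. The genes were listed by symbol, as enzymes and carriers of these steps, with earlier results of these data known. All 43 symbols were found among the 30153 genes of the joined count table, in 44 gene records, because Aldoa has 2 records.

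RNA-seq was done on pools of metaphase II (MII) oocytes, eggs arrested at the second meiotic division, from females of mixed genetic background aged 4 weeks. In every group the females were Sycp3CreERT2/+; Rosa26nT-nG/+. Sycp3CreERT2 makes a form of Cre recombinase that tamoxifen activates, from the locus of Sycp3, a gene of meiotic chromosome axes, and the nT-nG reporter makes nuclear tdTomato before recombination and nuclear GFP after it. Ovulation was induced in all females with 5 IU PMSG and, 48 h later, 5 IU hCG, and eggs were taken 13 h after hCG. After hyaluronidase had removed the cumulus cells, eggs were sorted by hand under a fluorescence microscope into the groups GFP High, GFP Low and RFP, with 3 libraries each. RFP pools were the largest, with 88, 87 and 100 oocytes, GFP Low pools had 49, 52 and 57, and GFP High pools had 15, 15 and 16, so pool size and group cannot be told apart. The labels do not say that the libraries of a group came from separate animals, so p-values measure only the spread between these samples, which may be technical.

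Glycolysis splits glucose into pyruvate, which lactate dehydrogenase exchanges with lactate. Inside mitochondria the pyruvate dehydrogenase complex turns pyruvate into acetyl-CoA, which the TCA cycle oxidises. Mouse oocytes are known to take up and oxidise pyruvate, to use glucose poorly by glycolysis, and to receive pyruvate from the surrounding cumulus cells. The pentose phosphate pathway branches off after glucose phosphorylation and supplies NADPH.

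Library totals ranged from 19381677 to 27746256 counts, and the 43 genes took between 0.563% and 0.641% of the counts of a library. All 16 oocyte marker genes were detected, with a summed level between 12762 and 14998 CPM (the count scaled to the library total). Of the 22 cumulus and granulosa cell markers all had counts in some library, and their summed level was 302–407 CPM in RFP, 316–337 CPM in GFP Low and 290–424 CPM in GFP High. Most of this sum came from Serpine2 and Nr5a2 in every library, with 175 and 101 CPM of the 290 CPM in GFP High 2. That library had 0 counts of Tnfaip6, Ptx3, Vcan and Gja1, so a like sum does not mean like levels of these genes. Of other cell types, 3 of 4 oviduct epithelium markers had counts and summed to at most 2.55 CPM, and 2 of 4 leukocyte markers summed to at most 0.450 CPM. The 4 red blood cell markers were not found by symbol in the joined count table.

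The highest and one of the lowest members coded for alternative subunits of the same enzyme, Ldhb and Ldha, and G6pdx was the next highest. Their promoters are therefore shown. Each is the 300-base RefSeq window around an annotated start on GRCm38.p6, read 5′ to 3′ on the gene's strand, with matches to ACGTG on either strand in capitals.
Ldhb, chr6:142507908-142508207, minus strand: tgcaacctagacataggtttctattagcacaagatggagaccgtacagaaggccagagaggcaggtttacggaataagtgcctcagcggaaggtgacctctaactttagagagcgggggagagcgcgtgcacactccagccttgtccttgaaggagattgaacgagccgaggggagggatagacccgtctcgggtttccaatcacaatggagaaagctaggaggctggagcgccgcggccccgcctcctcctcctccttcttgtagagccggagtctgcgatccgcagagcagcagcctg
Ldha, chr7:46845554-46845853, plus strand: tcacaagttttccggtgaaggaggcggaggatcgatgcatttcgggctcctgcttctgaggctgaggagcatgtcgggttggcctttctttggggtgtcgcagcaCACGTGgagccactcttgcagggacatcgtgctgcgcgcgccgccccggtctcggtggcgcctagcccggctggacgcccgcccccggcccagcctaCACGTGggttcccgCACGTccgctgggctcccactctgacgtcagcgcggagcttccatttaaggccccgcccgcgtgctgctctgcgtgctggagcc
G6pdx, chrX:74428831-74429130, minus strand: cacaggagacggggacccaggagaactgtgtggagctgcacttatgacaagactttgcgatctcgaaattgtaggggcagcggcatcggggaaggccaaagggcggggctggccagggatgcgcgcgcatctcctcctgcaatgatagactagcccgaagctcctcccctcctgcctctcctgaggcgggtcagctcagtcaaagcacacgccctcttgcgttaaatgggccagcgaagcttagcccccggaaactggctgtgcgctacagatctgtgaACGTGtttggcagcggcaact

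The core letters of hypoxia response elements are A or G followed by CGTG, and only the form ACGTG was counted. The Ldha window held 5 matches to ACGTG, counted over both strands. It also held 2 copies of the palindrome CACGTG, an E-box, each of which contains ACGTG on both strands. The G6pdx window held 1 match to ACGTG, and the Ldhb window held none. A further RefSeq start of Ldha, with its window at chr7:46846832-46847131, also held none. The other form, GCGTG, was not counted, and each of these windows holds it when both strands are read. RefSeq promoters were found for 41 of the 43 genes, 62 windows in all, and Idh3a and Pdp1 were not matched. ACGTG occurred in 38.7% of these windows and in 19.6% of all 32851 promoter windows of that length. CACGTG occurred in 9.68% against 7.15%, the GC box GGGCGG in 62.9% against 35.7%, and TATAAA in 0% against 13.6%. The 24 windows with ACGTG came from 17 of the 41 genes. No share was taken over promoters of genes expressed in these eggs, or over promoters of like GC content. These are letter matches in fixed windows, and binding was not measured.

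Levels are compared between genes as FPKM, the authors' fragment count scaled by gene length and library size, and are given as transcript levels in poly-A RNA. The 43 genes spread over a wide range. Averaged over the 9 libraries, 15 genes were at 10 FPKM or above, 21 between 1 and 10 FPKM, and 7 below 1 FPKM. The median over all 43 was 5.70 FPKM, beside a median of 2.00 FPKM over the 17680 genes with a mean of at least 0.1 FPKM and 3.50 FPKM over the 12719 of these that code for protein. Among the 10701 genes with a mean of at least 1 FPKM the median was 6.88 FPKM. The gene length in the deposited tables was longer than the longest coding transcript for all 43 genes, by up to 7.16-fold (Mpc2). Counts were therefore also scaled by the length of that transcript, here called transcript-length FPKM. On that scale 23 of the 43 genes were at 10 or above, 15 between 1 and 10, and 5 below 1. Levels below are in FPKM unless stated. The order of some genes and steps turns with the length, and this is said for the main cases, not for every pair.

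By pathway step, the median over the listed genes was lowest at the start of glycolysis. The 9 genes of glucose phosphorylation and the preparatory phase, down to the triose phosphates, had a median level of 1.32 FPKM, and the median in single libraries lay between 0.974 and 1.71 FPKM. The 5 genes of the payoff phase, which makes ATP and pyruvate, had a median of 4.42 FPKM (3.50–5.58 FPKM in single libraries). That median is the level of Eno1, which like Gapdh and Pgk1 shares most of its sequence with other genes, and without these 3 genes the median of Pgam1 and Pkm was 34.2 FPKM. The 10 genes of mitochondrial pyruvate entry and use had a median of 7.31 FPKM (6.89–8.12 FPKM). The 6 genes of citrate and isocitrate metabolism stood at 6.17 FPKM (5.31–7.36 FPKM), and the 8 genes from oxoglutarate to oxaloacetate at 15.4 FPKM (13.2–15.7 FPKM). The 3 pentose phosphate genes had a median of 4.53 FPKM (3.08–6.92 FPKM). In every library the preparatory phase was below each of the other steps, also in transcript-length FPKM, with 1.79–4.29 for the preparatory phase and 6.28–12.8 for the payoff phase. In FPKM the oxoglutarate to oxaloacetate step was above all others except lactate dehydrogenase. In transcript-length FPKM it stood at 19.8, beside 20.5 for pyruvate entry and use, and without Gapdh, Eno1 and Pgk1 it was below the payoff phase, so its place at the top depends on these choices. Citrate and isocitrate metabolism had a higher median than the payoff and pentose phosphate steps in FPKM. In transcript-length FPKM it was below both, at 9.04 beside 9.74 and 10.5.

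**Figure D1:**
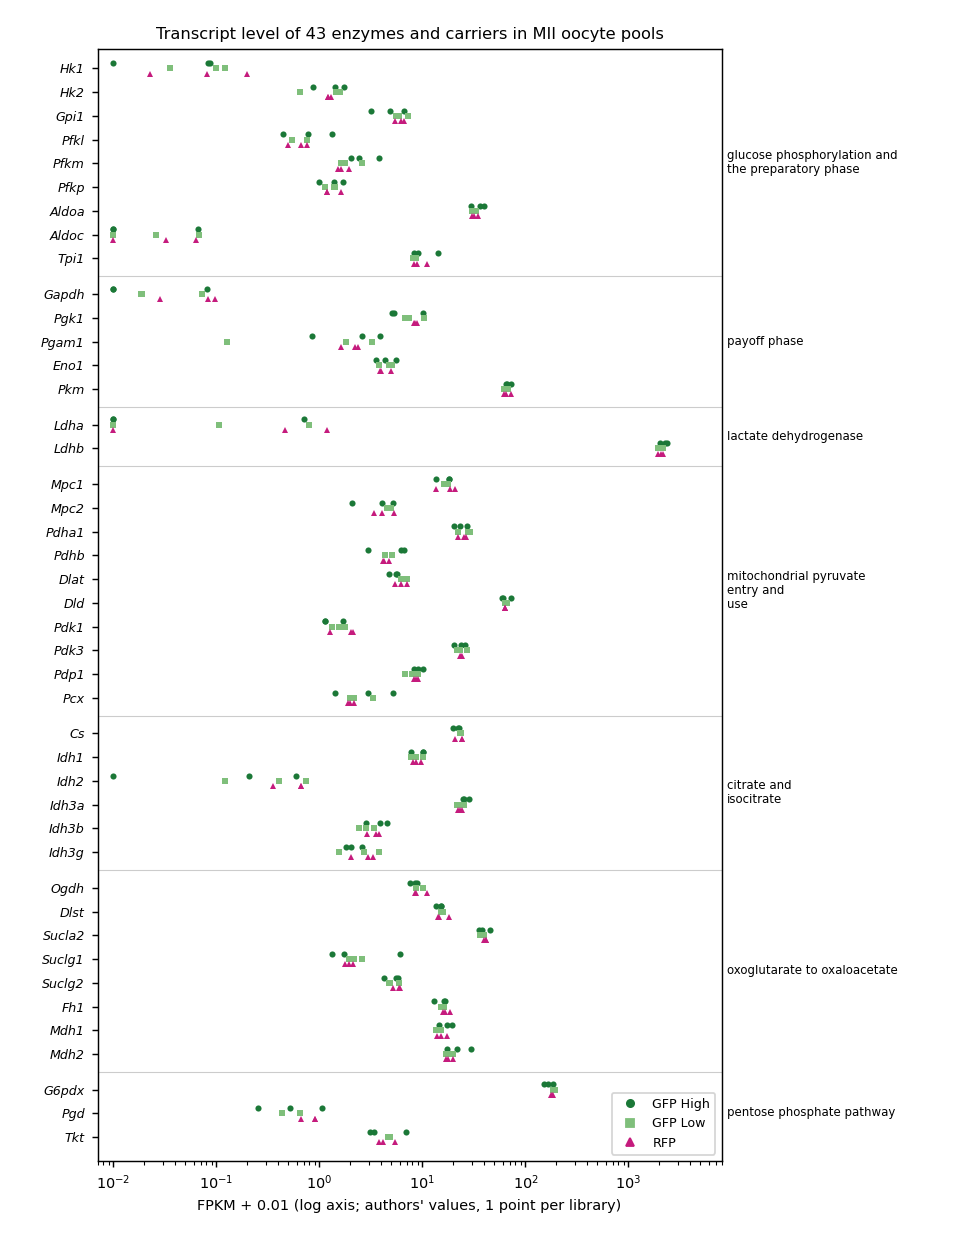
Each point is the transcript level of a gene in 1 library, as FPKM plus 0.01 on a log axis, with genes ordered by pathway step and colours and shapes marking GFP High, GFP Low and RFP. Ldhb lies far to the right, between 1915 and 2346 FPKM, and Hk1, Aldoc and Gapdh lie at the left with no library above 0.188 FPKM.

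Few neighbours in the order of levels were clearly apart. Ldhb had the highest mean, 2102 FPKM, which was 11.7-fold that of G6pdx at 179 FPKM, and G6pdx was 2.70-fold above Pkm. Pkm at 66.3 FPKM and Dld at 64.2 FPKM overlapped in their ranges over the 9 libraries, and Dld stood 1.63-fold above Sucla2 at 39.3 FPKM without overlap. Sucla2 overlapped Aldoa at 32.8 FPKM, and Aldoa did not overlap Pdha1 at 24.9 FPKM. From Pdha1 downwards every gene overlapped the next in the order, to Ldha at 0.355 FPKM, Hk1 at 0.0719 FPKM, Gapdh at 0.0366 FPKM and Aldoc at 0.0227 FPKM. With the length of the longest coding transcript the first 5 genes kept these ranks, G6pdx stood 1.53-fold above Pkm, and Pkm no longer overlapped Dld. Dlst then moved from rank 15 to rank 7 and Mpc2 from 27 to 13.

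Glucose phosphorylation was represented by a low level of Hk2, and Hk1 was close to the limit of detection. Hk2 and Hk1 code for hexokinases, which commit glucose to metabolism. The level of Hk2 was 0.859, 1.39 and 1.71 FPKM in GFP High, 1.56, 1.43 and 0.638 FPKM in GFP Low, and 1.29, 1.19 and 1.19 FPKM in RFP. Hk1 had 18, 0 and 14 counts in GFP High, 15, 25 and 6 counts in GFP Low, and 43, 14 and 3 counts in RFP, and 2 of the 9 libraries were at or under the limit of 3 counts. All 3 groups overlapped for both genes. Gpi1, the glucose phosphate isomerase, stood at 3.18 to 7.17 FPKM over the 9 libraries, with a median of 5.86 FPKM.

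Phosphofructokinase, the main control point of glycolysis, was low in all of its forms. In FPKM, Pfkm, the muscle form, stood at 2.01, 3.75 and 2.39 FPKM in GFP High, 1.62, 1.77 and 2.57 FPKM in GFP Low, and 1.52, 1.62 and 1.94 FPKM in RFP. Pfkp, the platelet form, ranged from 0.974 to 1.68 FPKM with a median of 1.37 FPKM, and Pfkl, the liver form, from 0.428 to 1.32 FPKM with a median of 0.656 FPKM. The order of Pfkm and Pfkp depends on the length used. FPKM divides by the gene length in the deposited tables, 13401 bases for Pfkp against 3340 for Pfkm and 6675 for Pfkl, and gave Pfkm above Pfkp in each of the 9 libraries. The longest coding transcripts have 4145, 2879 and 3730 bases, and with these Pfkp was above Pfkm in each library, with means of 4.31, 2.49 and 1.24 transcript-length FPKM for Pfkp, Pfkm and Pfkl. By counts, not scaled by length, Pfkp had 359 to 589 and Pfkm 106 to 308 per library. Pfkl was the lowest of the 3 in each library with either length. Exons of Pfkp overlap those of Pitrm1 on the opposite strand over 748 bases, and whether reads were counted by strand is not given in the sources used here.

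Aldolase transcripts were almost all Aldoa. Aldolase cleaves fructose bisphosphate into the triose phosphates, and Aldoa codes for its muscle form and Aldoc for its brain form. The level of Aldoa was 39.6, 36.1 and 29.3 FPKM in GFP High, 30.2, 30.7 and 33.4 FPKM in GFP Low, and 30.1, 34.7 and 31.5 FPKM in RFP. Aldoc had at most 5 counts in any library and was at or under 3 counts in 6 of 9. The other Aldoa record (ENSMUSG00000114515) had 58 counts in GFP High 2, 1 count in RFP 2 and none elsewhere. Tpi1, the triose phosphate isomerase, had a median of 8.70 FPKM and its highest level, 14.2 FPKM, in GFP High 2.

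In the payoff phase, Pkm had the highest level in every library. Pkm codes for the M forms of pyruvate kinase, the last step of glycolysis. Its level was 65.2, 72.7 and 66.4 FPKM in GFP High, 62.0, 64.5 and 67.3 FPKM in GFP Low, and 64.7, 61.6 and 72.1 FPKM in RFP, and the groups overlapped. Pgk1, which makes ATP from bisphosphoglycerate, ranged from 5.05 to 10.3 FPKM, and Eno1, the enolase that forms phosphoenolpyruvate, from 3.50 to 5.58 FPKM. Pgam1, the phosphoglycerate mutase, varied widely, with 131, 174 and 34 counts in GFP High, 116, 87 and 6 counts in GFP Low, and 108, 99 and 81 counts in RFP.

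Gapdh, the glyceraldehyde phosphate dehydrogenase, had 8, 0 and 0 counts in GFP High, 5, 1 and 1 counts in GFP Low, and 2, 7 and 10 counts in RFP. Its true level is uncertain. Of the 50-base windows of its longest coding transcript, 82.5% also occur in another annotated gene, and 170 annotated pseudogenes match that transcript. Of these copies, 65 were in the joined table, and together they had between 757 and 1049 counts per library. The same holds to a lesser degree for Eno1 (72.2% of windows shared, 73–182 counts in its copies), Pgk1 (68.0%, 10–29 counts), Pgam1 (41.5%, 0–26 counts) and Pkm (34.4%, 32–86 counts). How reads that match several genes were treated is not given in the sources used here.

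Lactate dehydrogenase transcripts were almost entirely Ldhb. The enzyme is a tetramer of B subunits, from Ldhb, and A subunits, from Ldha, and it interconverts lactate and pyruvate. Ldhb (chr6:142490249-142507957, minus strand, GRCm38) took between 0.308% and 0.372% of all counts and between 53.1% and 58.0% of the counts of the 43 genes. It ranked 7th to 10th of all genes by counts and 2nd to 5th of protein-coding genes by FPKM. Its level was 2346, 2254 and 2020 FPKM in GFP High, 1949, 2034 and 2184 FPKM in GFP Low, and 2154, 2064 and 1915 FPKM in RFP. The lowest and the highest library thus differed little, and the 3 groups overlapped. Of its 50-base windows 27.0% are shared with a pseudogene copy, Gm5514, which had 261–619 counts beside 59988–101339 for Ldhb.

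Ldha (chr7:46841475-46855627, plus strand, GRCm38) was detected in 5 of 9 libraries. It had 63, 0 and 0 counts in GFP High, 51, 0 and 9 counts in GFP Low, and 40, 89 and 0 counts in RFP. Each group thus held a library with no Ldha count and another with 40 or more. A count of 0 allows up to 3 counts, and these limits cover counting error only. Tnfaip6, a gene that cumulus cells switch on around ovulation, had 197, 0 and 3 counts in GFP High, 129, 7 and 15 counts in GFP Low, and 28, 249 and 0 counts in RFP. The cumulus gene Ptx3 had 159, 0 and 0 counts, then 122, 20 and 44, then 18, 221 and 0, in the same order. The 4 libraries with the most Ldha were also the 4 with the most Tnfaip6, in the order RFP 2, GFP High 1, GFP Low 1 and RFP 1 by counts. Among the 22 cumulus and granulosa markers, Serpine2, Nr5a2 and Cyp19a1 had counts of 165 or more in every library, whereas Tnfaip6, Ptx3, Vcan, Gja1 and Inhba fell to 0 counts in GFP High 2. Other markers on the list varied in other ways. Lhcgr had 46 counts in GFP High 2 and 0 in GFP High 1 and RFP 2. Star had 42, 11 and 13 counts in these libraries, and Fshr was highest in GFP Low 3, with 57 counts. The part that RNA of cumulus cells had in the Ldha level was not tested, and fewer such cells cannot be told apart from less RNA per cell.

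**Figure D2:**
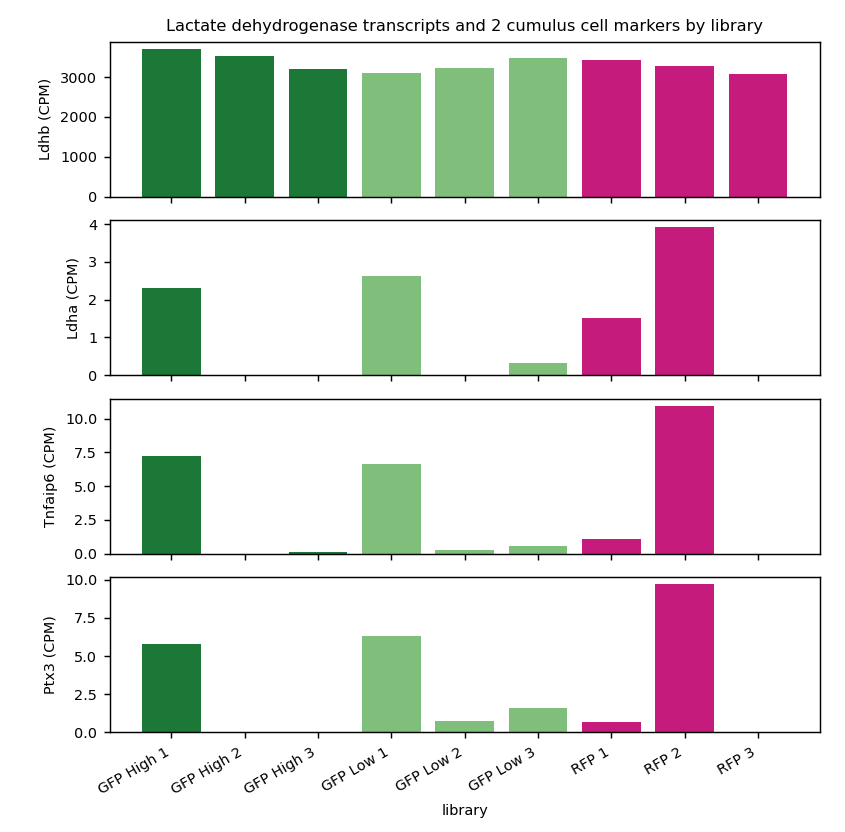
Bars give the CPM level in each of the 9 libraries for Ldhb, Ldha and, from the longer list of cumulus and granulosa markers, Tnfaip6 and Ptx3. Each gene has its own linear axis from 0. Ldhb is of like height throughout, whereas Ldha and both markers are highest in RFP 2, GFP High 1 and GFP Low 1 and reach 0 CPM in GFP High 2 and RFP 3.

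Both subunits of the pyruvate carrier were detected in each library. Mpc1 and Mpc2 code for the subunits of the mitochondrial pyruvate carrier. The level of Mpc1 was 17.9, 13.6 and 18.1 FPKM in GFP High, 16.1, 17.5 and 17.5 FPKM in GFP Low, and 20.5, 18.6 and 13.4 FPKM in RFP. Mpc2 ranged from 2.07 to 5.33 FPKM with a median of 4.47 FPKM, but its gene length in the tables is 7344 bases, against 2082 for Mpc1. The longest coding transcripts have 1025 and 961 bases, and in transcript-length FPKM the mean was 30.5 for Mpc2 and 37.3 for Mpc1, a far smaller difference. Pseudogene copies share 29.6% of the windows of Mpc1, and the copy in the table had 237–381 counts beside 656–1144 for Mpc1.

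Within the pyruvate dehydrogenase complex the subunits stood at unequal levels. Dld, the lipoamide dehydrogenase shared with other complexes, was at 72.0, 60.9 and 59.7 FPKM in GFP High, 66.7, 64.3 and 63.4 FPKM in GFP Low, and 63.8, 63.3 and 63.1 FPKM in RFP. Pdha1, the catalytic alpha subunit, had a median of 25.4 FPKM (20.4–29.0 FPKM). Pdhb, its partner in the same heterotetramer, had a median of 4.35 FPKM (2.95–6.63 FPKM), and Dlat, the acetyltransferase core, of 6.12 FPKM (4.71–7.10 FPKM). Each library had Dld above Pdha1, and Pdha1 above both Dlat and Pdhb, whose own order in FPKM changed between libraries. In transcript-length FPKM Pdhb was above Dlat in each library, with means of 12.1 and 7.40. Pdhx, which anchors Dld to the core and is not among the 43 genes, was between 63.2 and 82.0 FPKM.

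Of the regulators of the complex, the kinase Pdk3 and the phosphatase Pdp1 had the higher levels. The kinases switch the complex off by phosphorylation and the phosphatases switch it on. Pdk3 was at 25.9, 20.2 and 23.4 FPKM in GFP High, 22.9, 21.8 and 26.8 FPKM in GFP Low, and 23.3, 23.9 and 23.4 FPKM in RFP. Pdk1 ranged from 1.12 to 2.10 FPKM and Pdp1 from 6.72 to 10.05 FPKM. Pcx, the pyruvate carboxylase that refills oxaloacetate, was at 2.95, 5.16 and 1.41 FPKM in GFP High, 2.15, 1.97 and 3.27 FPKM in GFP Low, and 1.99, 2.16 and 1.89 FPKM in RFP. GFP High 2 was the highest library for Pcx and GFP High 3 the lowest.

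Of the 6 genes of citrate and isocitrate metabolism, Idh3a and Cs had the highest levels. Cs, the citrate synthase, was between 19.7 and 24.4 FPKM. Idh3a, the catalytic subunit of the NAD-linked enzyme, was at 24.5, 28.2 and 25.5 FPKM in GFP High, 21.6, 25.4 and 24.5 FPKM in GFP Low, and 24.0, 23.1 and 21.9 FPKM in RFP. Its partners Idh3b and Idh3g were lower, at 2.44–4.54 FPKM and 1.54–3.78 FPKM. Of the NADP-linked forms, the cytosolic Idh1 was at 7.76–10.2 FPKM, and the mitochondrial Idh2 had 14, 37 and 0 counts in GFP High, 37, 27 and 8 counts in GFP Low, and 24, 39 and 47 counts in RFP.

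From oxoglutarate onwards 5 of the 8 genes had a mean level of 10 FPKM or above, and Dlst, at 15.2 FPKM with a gene length of 9559 bases in the tables, was at 53.2 transcript-length FPKM with the 2764 bases of its longest coding transcript. Ogdh and Dlst, which with Dld make up the oxoglutarate dehydrogenase complex, had medians of 8.63 and 15.1 FPKM. Sucla2, the ADP-linked beta subunit of succinyl-CoA ligase, was at 45.3, 35.1 and 37.9 FPKM in GFP High, 39.2, 36.1 and 39.1 FPKM in GFP Low, and 40.9, 39.3 and 40.9 FPKM in RFP. Suclg2, the GTP-linked beta subunit, ranged from 4.23 to 6.01 FPKM. Suclg1, the alpha subunit that both beta subunits need, was at 1.32 to 2.60 FPKM in 8 libraries and at 6.002 FPKM in GFP High 2. Of succinate dehydrogenase, Sdha (37.2–59.6 FPKM) and Sdhd (43.2–52.9 FPKM) were above Sdhb (3.69–5.67 FPKM) and Sdhc (4.78–6.77 FPKM) in every library. Fh1, the fumarase, had a median of 16.0 FPKM, and the malate dehydrogenases Mdh1 (cytosolic) and Mdh2 (mitochondrial) had medians of 15.1 and 18.8 FPKM.

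**Figure D3:**
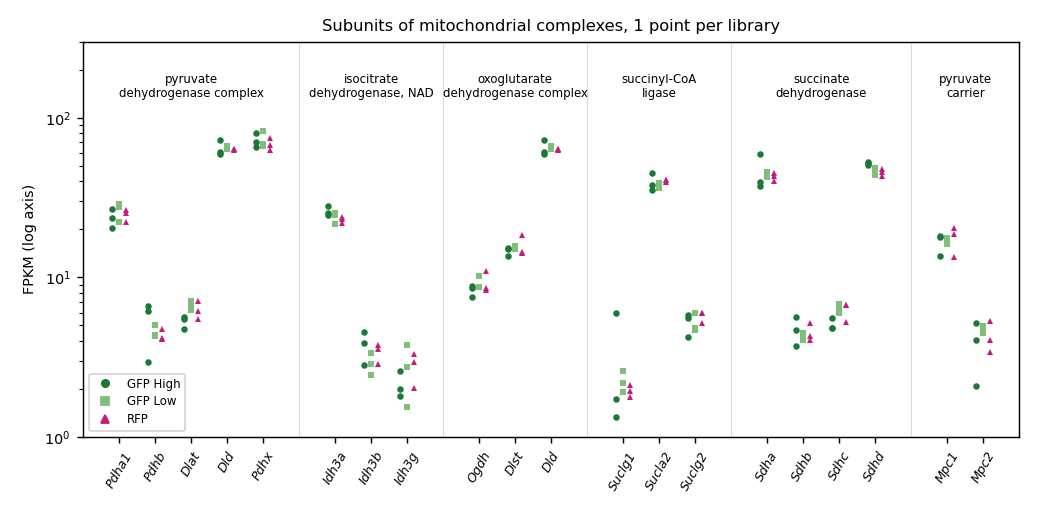
Points give the FPKM level of each subunit in each of the 9 libraries on a log axis, grouped by mitochondrial complex, with Dld drawn in both complexes that use it. Sucla2, at 35.1–45.3 FPKM, lies apart from Suclg1, at 1.32–6.002 FPKM, whereas other subunits, such as Dlat and Pdhb, overlap.

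The pentose phosphate branch began with the second highest gene of the set. G6pdx, the X-linked glucose-6-phosphate dehydrogenase that makes NADPH, was at 187, 152 and 166 FPKM in GFP High, 185, 187 and 192 FPKM in GFP Low, and 178, 182 and 183 FPKM in RFP. GFP High 2 and GFP High 3 were the lowest libraries, and GFP High 1 lay among the others. Pgd, the next NADPH-forming enzyme, was far lower, at 0.242, 0.505 and 1.05 FPKM in GFP High, 0.633, 0.421 and 0.640 FPKM in GFP Low, and 0.896, 0.646 and 0.895 FPKM in RFP. Tkt, the transketolase, ranged from 3.08 to 6.92 FPKM.

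The isozymes or alternative subunits of a step were compared within each library as a log2 ratio of FPKM plus 0.1. In FPKM all 11 ratios differed from 0 in the test given below, which does not allow for the gene length used. The mean log2 ratio was 12.89 for Ldhb over Ldha (SD 1.56, n = 9), 8.09 for Aldoa over Aldoc (SD 0.28) and 4.42 for Idh1 over Idh2 (SD 0.96). It was -2.86 for Suclg2 over Sucla2 (SD 0.18), -3.00 for Hk1 over Hk2 (SD 0.54) and -3.87 for Pdk1 over Pdk3 (SD 0.29). The first 3 of these ratios and Hk1 over Hk2 rest on genes near the limit of detection and move with the added 0.1. Mpc1 over Mpc2 was 2.02 (SD 0.28), and 0.32 (SD 0.29), a 1.25-fold difference, with the length of the longest coding transcript. Among phosphofructokinases the mean was -0.62 for Pfkp over Pfkm (SD 0.39), -1.51 for Pfkl over Pfkm (SD 0.38) and 0.89 for Pfkp over Pfkl (SD 0.55). With the transcript length the sign of Pfkp over Pfkm turned, to 0.80 (SD 0.39, above 0 in 9 of 9 libraries), and the other 2 were -0.96 and 1.76.

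For these 10 ratios all 9 libraries had the same sign. Each had p = 0.0039 in the exact two-sided sign-flip permutation test (0.0043 after Benjamini-Hochberg adjustment over the 11 ratios). The unadjusted value is the smallest that 9 libraries can give. It shows only that a ratio kept its side of 0. Each ratio holds a fixed offset from the gene lengths, which can move that side, as for Pfkp over Pfkm. The p-values alone therefore do not show which isozyme was more abundant. The phosphofructokinase ratios are also not independent, as each follows from the others. Mdh1 over Mdh2 was at -0.34 (SD 0.25, n = 9), below 0 in 8 of 9 libraries, with an exact permutation p = 0.0117 (0.0117 adjusted). Without the 3 libraries with the most Tnfaip6 its mean over 6 libraries was -0.25, with an adjusted exact permutation p = 0.0938, and with the length of the longest coding transcript the mean over 9 libraries was -1.36.

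The choice of isozyme was not found to differ between the groups. For Ldhb over Ldha the mean log2 ratio was 12.28 ± 1.80 in RFP, 12.95 ± 1.66 in GFP Low and 13.43 ± 1.65 in GFP High (SD, n = 3). For Pfkp over Pfkm it was -0.35 ± 0.08, -0.56 ± 0.33 and -0.95 ± 0.45, in the same order. This ratio had the smallest p of the 11, at 0.114 in the exact permutation test over all assignments of libraries to groups. None of the 11 passed after adjustment, with 0.825 as the adjusted p of each.

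**Figure D4:**
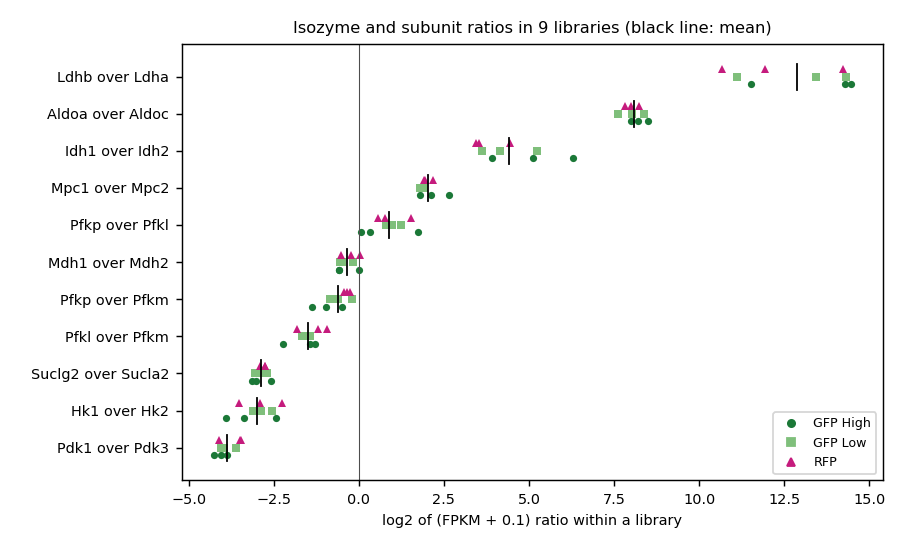
Each point is the log2 ratio of FPKM plus 0.1 between the named genes in 1 library, with colour and shape for the group and a black line for the mean over 9 libraries. On this scale 10 of the 11 ratios lie wholly on 1 side of 0, and for Pfkp over Pfkm the 3 GFP High libraries lie below the 3 RFP libraries.

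Whether groups overlap is judged below on CPM scaled by TMM, the scaling of the test, for members and all genes alike. In GFP High against RFP, no member passed the test. These groups hold the eggs with the strongest GFP and those with RFP, and edgeR's quasi-likelihood test was run on all genes with p-values adjusted by the Benjamini-Hochberg method. Of 41 members tested, 0 were called at an adjusted p under 0.05, where 0.0135% of all 14829 genes were called. At an unadjusted p under 0.05 the count was 0 members, beside 4.09% of all genes. DESeq2 called 0 members and had 1 at an unadjusted p under 0.05, and limma-voom called 0 and had 0. The median log2 fold change was -0.01 over the members and -0.01 over all genes tested, with 20 members above 0 and 21 below.

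The member with the highest fold change in this comparison was Pfkm, whose levels of 2.01 to 3.75 FPKM in GFP High lay above 1.52 to 1.94 FPKM in RFP. Its log2 fold change was 0.67 (SE 0.35, 95% interval -0.11 to 1.45, adjusted p 0.997). Idh3a was the other member whose groups did not overlap in CPM, where 11.8% of all genes had groups that did not, at 0.17 (SE 0.11). Pcx had a log2 fold change of 0.64 (SE 0.41), and its groups overlapped. The lowest values were those of Ldha, at -1.22 (SE 1.96), and Idh2, at -1.10 (SE 1.34), both from libraries with few counts, and Ldha stood at 0.02 without RFP 2. For Ldhb the log2 fold change was 0.10, with an interval from -0.07 to 0.26.

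In GFP Low against RFP, again no member passed. edgeR called 0 of 41 members, where 0.0197% of all 15199 genes were called, and 0 members had an unadjusted p under 0.05, beside 2.62% of all genes. DESeq2 and limma-voom also called 0 members and had 0 at an unadjusted p under 0.05. The median log2 fold change was -0.03 over the members and -0.0041 over all genes, with 18 members above 0 and 23 below. Pgd had the smallest p of the members, with levels of 0.421 to 0.640 FPKM in GFP Low and 0.646 to 0.896 FPKM in RFP. Its log2 fold change was -0.53 (SE 0.29, 95% interval -1.15 to 0.09, adjusted p 1.00).

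Pgd and Sucla2 were the members whose libraries did not overlap in CPM between GFP Low and RFP, where 7.68% of all genes did not. Sucla2 had a log2 fold change of -0.09 (SE 0.08). The highest values were those of Pcx, at 0.29 (SE 0.22), and Pfkm, at 0.23 (SE 0.25), and the lowest was that of Ldha, at -0.90 (SE 1.31), which was 0.35 without RFP 2. Ldhb stood at 0.01, with an interval from -0.15 to 0.16. These comparisons share their RFP libraries.

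In GFP High against GFP Low, edgeR called 0 of 40 members and 0% of all 14785 genes. At an unadjusted p under 0.05 there were 0 members, beside 3.77% of all genes. DESeq2 called 0 members and had 1 at an unadjusted p under 0.05, and limma-voom called 0 and had 0. The median log2 fold change was 0.02 over the members and -0.0048 over all genes, with 21 members above 0 and 19 below. Cs, Dlat and Dlst were lower in each GFP High library than in any GFP Low library on the CPM scale, where 11.5% of all genes had groups that did not overlap. In FPKM Dlst did overlap, with 15.3 FPKM in GFP High 2 and 15.1 FPKM in GFP Low 2. For Dlat the levels were 5.61, 4.71 and 5.48 FPKM against 6.62, 6.22 and 7.09 FPKM, a log2 fold change of -0.35 (SE 0.17, 95% interval -0.73 to 0.04, adjusted p 0.998). For Cs the log2 fold change was -0.13 (SE 0.10) and for Dlst -0.09 (SE 0.09).

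The members at the ends of this comparison had wide intervals. Pgam1 had a log2 fold change of 0.50 (SE 0.93) and Pfkl of 0.46 (SE 0.48). Idh2 stood at -0.67 (SE 1.47) and Hk1 at -0.58 (SE 1.55). Ldhb was at 0.09, with an interval from -0.06 to 0.24. In both comparisons with a member at an unadjusted p under 0.05 by DESeq2, that member was the other Aldoa record, which the low-count filter of edgeR left out. Its p in the authors' deposited table was 0.0326 against RFP and 0.0225 against GFP Low, and its 58 counts came from GFP High 2.

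**Figure D5:**
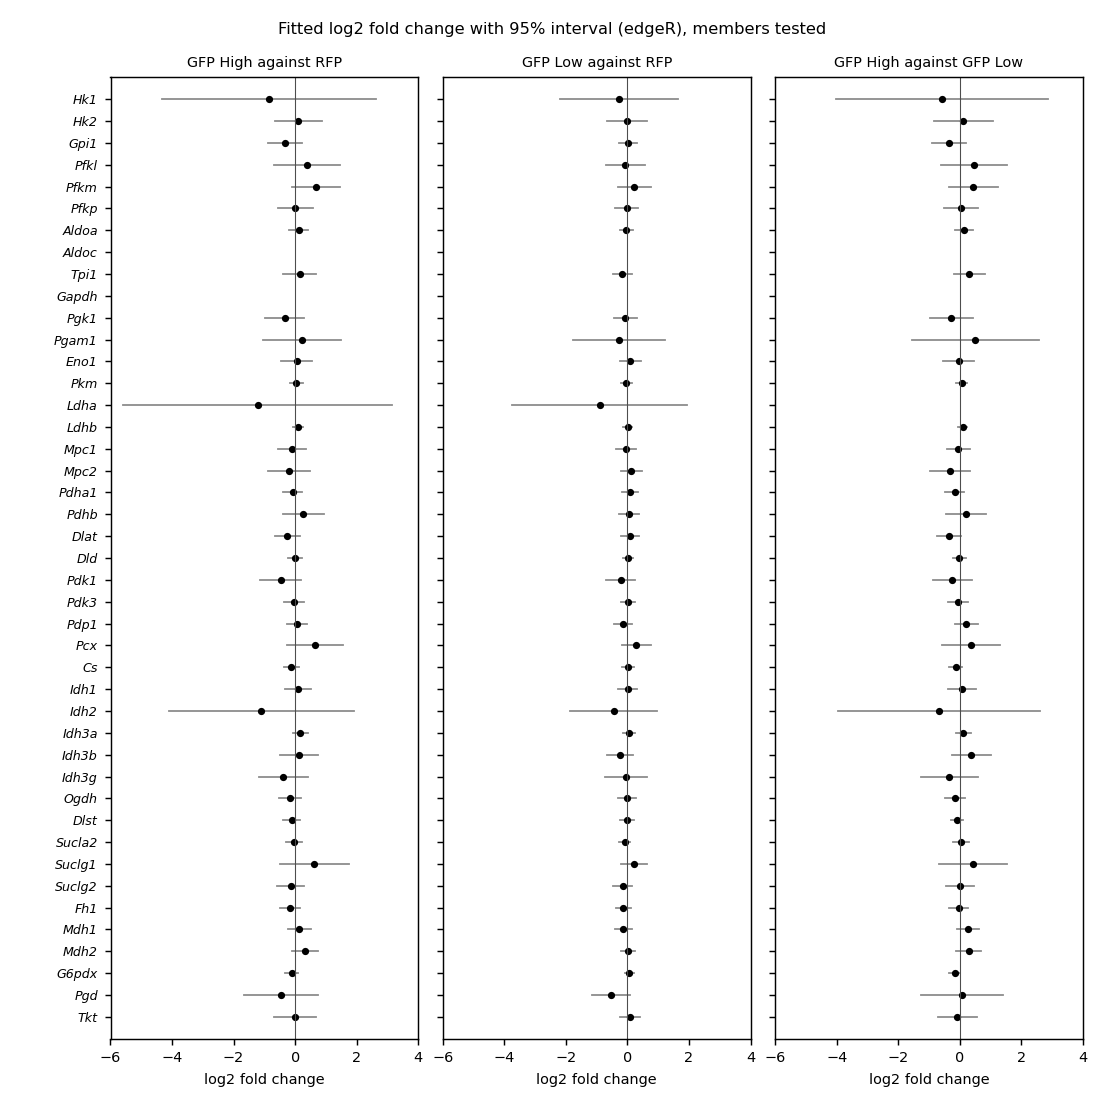
Points give the fitted log2 fold change of each tested member in the 3 comparisons and lines its 95% interval from edgeR. Every interval includes 0, and those of Ldha, Hk1, Idh2 and Pgam1 are the widest, whereas that of Ldhb is short.

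The 95% intervals bound the differences that these libraries allow. In GFP High against RFP the interval lay within a 2-fold change for 30 of 41 members and within a 1.5-fold change for 19. This was so for 36 and 28 of 41 members in GFP Low against RFP. For GFP High against GFP Low it was so for 30 and 18 of 40. The median SE of a member's log2 fold change was 0.22, 0.14 and 0.21 in the same order. Gapdh and Aldoc passed the low-count filter in no comparison, and Ldha not in GFP High against GFP Low, so nothing can be said of a change in them there.

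Members varied more between libraries in GFP High. Over the 36 members with a mean of at least 1 FPKM, the median coefficient of variation of the FPKM level was 8.57% in RFP, 8.98% in GFP Low and 15.7% in GFP High. The same held for all 10701 genes at that level, at 11.7%, 10.8% and 20.01%. The spread was widest in GFP High for 24 of the 36 members, in GFP Low for 5 and in RFP for 7. GFP High 2 was the highest of the 9 libraries for 11 members, among them Suclg1, Pcx and Mdh2, and the lowest for 8, among them Gpi1, Mpc2 and G6pdx. GFP High 3 was the lowest for 10. GFP High pools held 15 or 16 oocytes, the smallest number, so the group and the pool size cannot be told apart here.

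Of 49 further genes of these pathways, listed by function, 45 were in the joined table and the other 4 were not analysed here. edgeR tested 35, 34 and 33 of them in the 3 comparisons, in the order above, and called 0 in each. Only Bpgm had an unadjusted p under 0.05 by edgeR, in GFP High against GFP Low, where 3.77% of all genes did. In that comparison DESeq2 and limma-voom each had 2 of these further genes higher and 1 lower at that threshold, and called 0. Bpgm makes and breaks bisphosphoglycerate, a side product of the payoff phase. Its level was 278, 315 and 312 FPKM in GFP High, 270, 264 and 244 FPKM in GFP Low, and 267, 279 and 263 FPKM in RFP. GFP High and GFP Low did not overlap in FPKM or in CPM, where 11.5% of all genes did not. The log2 fold change was 0.21 (SE 0.07, 95% interval 0.05 to 0.37). The adjusted p of edgeR for Bpgm was 0.998, against 0.0172 unadjusted. The germ cell forms known from the testis were low, with Ldhc at 0.573–2.09 FPKM, Pdha2 at 0.865–2.03 FPKM and Gapdhs at most 0.610 FPKM. Ldhc had 19 to 74 counts per library. Its mean was 0.976 FPKM, beside 0.355 FPKM for Ldha, and which of these genes was higher varied between libraries.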

How the data were processed

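Poly-A RNA of 9 oocyte pools was captured with oligo-dT beads and fragmented, and cDNA made from random hexamers was read from both ends, per the labels' protocols. The submitters' processing notes name fastp, HISAT2 2.0.5, featureCounts 1.5.0-p3, DESeq2 1.20.0 and mm10, with no role or order. The authors deposited 3 tables, 1 per pair of groups, with the raw count per gene, the FPKM value, a normalised signal (count over a size factor within the table), and, for their comparison, a p-value (raw and adjusted) and a log2 fold change. The signal was not used, and the authors' deposited p-values are quoted for 1 gene record. Counts were joined by gene identifier, with 0 for 178 genes that a table lacked. No per-sample column was left out.

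edgeR 4.0.16 (R 4.3.3; filterByExpr, TMM, quasi-likelihood test) was fitted to the counts of the 6 libraries of each pair, with Benjamini-Hochberg adjustment over all genes tested. The fit was tested on simulated data. Standard errors come from the F statistic. At the smallest library total, 1 CPM is about 19.4 counts. Alternatives were DESeq2 1.42.0, limma-voom (limma 3.58.1), other scaling and filters, all 9 libraries in 1 fit, a replicate block and leaving out each library. A fit without the 3 libraries with the most Tnfaip6, levels from counts with the length of the longest coding transcript (GENCODE M21), and step medians without Gapdh, Eno1 and Pgk1 were chosen after seeing the data. Pseudogene copies were found with blastn 2.17.0 (at least 90% identity over 200 bases and 50% of the shorter sequence) and 50-base windows in GENCODE M21 transcripts. Promoter sequences are from RefSeq, GRCm38.p6.

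In a comparison, the 2 members with the highest and the 2 with the lowest log2 fold change were named, with any other gene of the lists at an unadjusted p under 0.05. Ldhb was added for its level, and members whose groups did not overlap were named after their values were seen. The members and lists were chosen with earlier results of these data known.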

Additional observations from a re-analysis of the deposited data

How the results depend on the processing

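In each comparison 0 members were called under all 14 alternatives, with a smallest adjusted p of 0.384 (GFP High against RFP), 0.814 (GFP Low against RFP) and 0.450 (GFP High against GFP Low). No isozyme ratio differed between groups under 15 alternatives, the smallest adjusted p being 0.314. The median log2 fold change of the members stayed within the replicate SD of 0.07 of its value, except in GFP High against RFP, where it was -0.12 without the 3 libraries with the most Tnfaip6 and lay between -0.0851 and 0.0003 with 1 library left out (lowest without GFP High 1). With 1 library left out it lay between -0.0416 and 0.0053 (GFP Low against RFP) or -0.0471 and 0.0585 (GFP High against GFP Low). Libraries with the same replicate number did not deviate together, with correlations from -0.113 to 0.116. With the replicate block, 0 members were called in each comparison and the medians were -0.04, -0.02 and -0.02.

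Some log2 fold changes that passed no test changed sign, and the cause was not tested. Leaving out 1 library, Ldha ranged from -8.48 to 0.0224 in GFP High against RFP and from -3.41 to 0.35 in GFP Low against RFP, above 0 without RFP 2. The value of -8.48 is a fitted value against libraries at 0 counts and no bound. In GFP Low against RFP, Ldhb ranged from -0.0441 to 0.0409, below 0 without GFP Low 3 or RFP 3, was -0.0019 with no low-count filter, and Pfkm ranged from -0.0064 to 0.351, below 0 without GFP Low 3. In GFP High against GFP Low, Idh2 ranged from -2.03 to 0.0224, above 0 without GFP Low 1, and was 0.185 without the 3 libraries with the most Tnfaip6. Pfkl ranged from -0.0359 to 0.760, below 0 without GFP High 2, and Pgam1 from -0.0606 to 1.33, below 0 without GFP Low 3. The log2 ratio of Mdh1 over Mdh2 was -0.25 (adjusted p 0.0938, exact permutation test) without the 3 libraries with the most Tnfaip6, where 6 libraries remain. The length of the longest coding transcript in place of the gene length, an alternative chosen after seeing the data, turned Pfkp over Pfkm from -0.62 to 0.80 and moved Mpc1 over Mpc2 from 2.02 to 0.32. Mpc1 over Mpc2 and the remaining 8 ratios kept their sign and passed under all 14 alternatives. Passing the sign-flip test shows a steady sign only. The size of a ratio depends on the added FPKM for genes near 0. This was so for Ldhb over Ldha (10.7 to 14.5), Aldoa over Aldoc (5.04 to 10.4) and Hk1 over Hk2 (-4.32 to -1.06). The median member stood at percentile 66.8 of genes with a mean of at least 0.1 FPKM, at 45.1 of those with at least 1 FPKM, and at 72.6 with the transcript length. Depth limits Hk1, Idh2, Ldha and Aldoc, each at or under 3 counts in some library. Gapdh was also at or under 3 counts in some, but most of its sequence is shared with other genes, so its level is uncertain at any depth.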

Other observations

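Several genes that feed or bypass these pathways, and whose levels are not given above, were abundant. Me1, the cytosolic malic enzyme that makes pyruvate and NADPH from malate, was at 89.7 to 123 FPKM over the 9 libraries, and Me2, a mitochondrial form, at 25.8 to 39.1 FPKM. Fbp1, which reverses the phosphofructokinase step, was at 11.4 to 27.0 FPKM, above Pfkl, Pfkm and Pfkp in each library, whose highest level was 3.75 FPKM. Tigar, a phosphatase that lowers the activator of phosphofructokinase, was at 7.80 to 17.9 FPKM, and Pfkfb3, which makes that activator, at 0.663 to 2.17 FPKM. In the pentose phosphate pathway Taldo1, the transaldolase, was at 13.4 to 20.4 FPKM and Rpia, the ribose phosphate isomerase, at 9.06 to 11.9 FPKM, whereas Pgls, the lactonase that follows G6pdx, was at 0.108 to 1.97 FPKM. These levels were chosen for mention after they were seen.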
